A study of Mus musculus with 12 samples.

Results

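The expression landscape of dorsal root ganglia after spinal cord injury was read from the 6 control libraries of a mouse study that holds 12 libraries in all. These controls are 3 libraries from mice given an adeno-associated virus that carried green fluorescent protein (AAV-GFP) and 3 libraries from mice given vehicle. The rule that chose them used their labels and no measured value. It was set, as were the gene lists used below, with earlier results of these data known. All 12 libraries came from C57BL/6J mice aged 8 weeks, from ganglia of the L4-6 levels, which send axons into the sciatic nerve, taken 72 h after the injury. The AAV-GFP animals had received the virus into the sciatic nerve for 4 weeks, and the treated arms held AAV-TKT (the same vector carrying transketolase) and 10% ribose, with 3 libraries each. No uninjured ganglion was analysed here, so the values show what injured ganglia expressed and not what the injury changed. The labels name the tissue as sciatic sensory neurons, give no promoter for the virus and no sex, and do not say whether the 3 libraries of a group came from separate animals. The p-values below therefore measure the spread between these samples, which may be technical. On sex, the Y-linked genes Ddx3y, Uty, Kdm5d and Eif2s3y summed to 38.7 to 49.8 FPKM in each of the 6 control libraries. Xist was not listed for either group, so the control libraries had the pattern of male tissue.

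A dorsal root ganglion holds the cell bodies of sensory neurons, each wrapped by satellite glia, with Schwann cells along the axons and fibroblasts, vessels and resident immune cells between them. Its neurons fall into classes. Large-diameter neurons, rich in neurofilament, carry touch and the sense of limb position; peptidergic nociceptors release calcitonin gene-related peptide and substance P; non-peptidergic nociceptors carry receptors for itch and for noxious mechanical stimuli; and low-threshold C fibres respond to gentle touch. The cell body supplies proteins to axons that are many times its own length, and cytoskeletal, transport and metabolic genes are therefore known to be abundant in these cells.

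The values are FPKM (fragments per kilobase, adjusted for library size), which the authors deposited as 1 table per experiment. FPKM is a level per length, so genes can be ordered within a library. The tables were built separately, with 13178 genes for AAV-GFP and 21650 for Vehicle, so only ranks were set side by side between the groups (rank 1 is the highest mean FPKM of the 3 libraries), never levels. A mean of at least 1 FPKM was reached by 13089 genes in AAV-GFP and 13441 in Vehicle. Read counts were not among the values, so the depth is unknown. Among genes under 0.5 FPKM in the Vehicle table, the spacing of low values put replicates 2 and 3 at 1.26 and 1.33 times the depth of replicate 1. AAV-GFP showed no such clear steps. The 100 highest genes took 17.96% to 18.3% of the FPKM outside Rn7s2 in each control library, and 891 to 949 genes took 50% of it.

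The largest single entry in all 6 libraries was not a protein-coding gene but Rn7s2, a copy of the 7SL RNA of the signal recognition particle, which guides nascent secreted proteins to the endoplasmic reticulum. It was listed at 55032.5, 26224.4 and 45410.5 FPKM in AAV-GFP replicates 1 to 3, or 12.6%, 6.32% and 11.0% of all FPKM. In Vehicle it was listed at 146959, 123711 and 95538.4 FPKM, or 26.7%, 22.4% and 18.7%. Replicate 2 was the lowest within AAV-GFP and replicate 1 the highest within Vehicle, and every total that includes Rn7s2 moves with it. All of its 31-base words also occur in other annotated genes, Rn7s1 among them, so reads of these copies cannot be told apart.

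Another non-coding gene, Mir6236, had the largest variation between libraries in both groups among genes with non-provisional names. Its mature miRNA (RefSeq, GRCm38.p6, chr9:110281353-110281371, plus strand) is shown with its seed, bases 2 to 8, in capitals:
mmu-miR-6236: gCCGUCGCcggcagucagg
Mir6236 was listed at 177, 511 and 5.06 FPKM in AAV-GFP and at 14.2, 79.8 and 0 FPKM in Vehicle. Replicate 2 was the highest and replicate 3 the lowest in each group. Entries this short measure whatever fragments overlapped the precursor in a library of polyadenylated RNA, and they are not a measure of the mature miRNA.

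Among protein-coding genes, the top of the list in both groups was the neuronal cytoskeleton. Tuba1a, an alpha-tubulin of neurons, ranked 3 in AAV-GFP (1780, 1750 and 1647 FPKM) and 2 in Vehicle (2154, 2601 and 2311 FPKM). Tubb3, the beta-tubulin that marks neurons, ranked 7 and 5, Actg1 ranked 9 and 8, and Actb ranked 16 and 12. Map1b, a microtubule-associated protein of growing and regenerating axons, ranked 10 in AAV-GFP (1350, 1407 and 1147 FPKM) and 23 in Vehicle (1011, 822 and 1222 FPKM). Of the 28 listed actin and tubulin genes, all were measured at a mean of at least 1 FPKM, 14 were among the 100 highest genes in each group, and the median rank was 95.5 in AAV-GFP and 116 in Vehicle. Together they took 3.60% to 3.79% of the FPKM outside Rn7s2 in the AAV-GFP libraries and 3.89% to 4.08% in the Vehicle libraries.

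Intermediate filaments stood beside them. Nefl, the neurofilament light chain, was the highest protein-coding gene in AAV-GFP, with 1796, 1858 and 1557 FPKM (1737 ± 159, SD, n = 3). In Vehicle it ranked 7 over all genes, with 1487, 1104 and 1806 FPKM (1466 ± 352, SD, n = 3), and replicate 2 was the lowest. Nefm ranked 38 and 75 and Nefh, the heavy chain of large axons, ranked 41 and 81. Prph, the peripherin filament of small neurons, ranked 18 and 21, with 1002, 1028 and 920 FPKM in AAV-GFP and 1008, 1265 and 969 FPKM in Vehicle. The 6 measured members of this list had the best median rank of any list in both groups, 39.5 and 78.0.

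Genes that mark neurons of any kind were close behind. Uchl1, a ubiquitin hydrolase abundant in neurons, ranked 6 in AAV-GFP (1644, 1354 and 1405 FPKM) and 4 in Vehicle (1943, 2036 and 2039 FPKM). Sncg, the gamma-synuclein of sensory neurons, ranked 17 and 11. Its Vehicle values of 1043, 1621 and 961 FPKM were the least even of the 20 highest protein-coding genes in that group (SD of log2(FPKM + 1) 0.405). All 17 pan-neuronal markers were measured, with a median rank of 243 in AAV-GFP and 260 in Vehicle, and 6 of them were among the 100 highest genes in each group. Stmn2, a tubulin-binding protein of axons, ranked 25 and 24, and Snap25, a core protein of synaptic vesicle fusion, ranked 44 and 61.

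Calca, which encodes calcitonin gene-related peptide, was the highest gene of the neuropeptide list in both groups. It ranked 5 in AAV-GFP (1516, 1439 and 1454 FPKM, 1470 ± 40.8, SD, n = 3) and 9 in Vehicle (1288, 1536 and 1227 FPKM, 1350 ± 164, SD, n = 3). Tac1, the substance P precursor, ranked 375 and 241. Other secretory granule genes came lower, with Scg3 at 139 and 161 and Chga at 1079 and 1527. The 17 and 18 measured genes of the list had median ranks of 1670 and 1702.5, so Calca stood far above most of them.

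Energy supply and protein care made up most of the remaining top ranks. Aldoa, the glycolytic aldolase, ranked 8 and 6, and Gapdh ranked 33 and 13. The 21 glycolysis genes had median ranks of 343 and 454, ahead of the 16 citrate cycle genes (935.5 and 913) and the 75 nuclear genes of oxidative phosphorylation (995 and 975). The 13 mitochondrially encoded genes of the respiratory chain had median ranks of 160 and 510, ahead of glycolysis in AAV-GFP and behind it in Vehicle. The pentose phosphate pathway, which the treated arms of the study address, was far lower: its 12 members had median ranks of 4834 and 4460.5, and its highest members were Tkt, encoding transketolase, at rank 685 and 626, and Taldo1, encoding transaldolase, at rank 1152 and 1036. Hspa8, the constitutive chaperone of clathrin uncoating and protein folding, ranked 4 (1584, 1643 and 1489 FPKM) and 3 (2275, 2408 and 2178 FPKM), and Hsp90ab1 ranked 21 and 25. Of 79 cytoplasmic ribosomal protein genes, 49 and 55 were among the 1000 highest genes, and Rpl41, their highest member, ranked 80 in Vehicle and just missed the 100 highest in AAV-GFP. Axonal transport motors had median ranks of 381 and 433.5, with Klc1, a kinesin light chain, at 57 and 64.

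**Figure D1:**
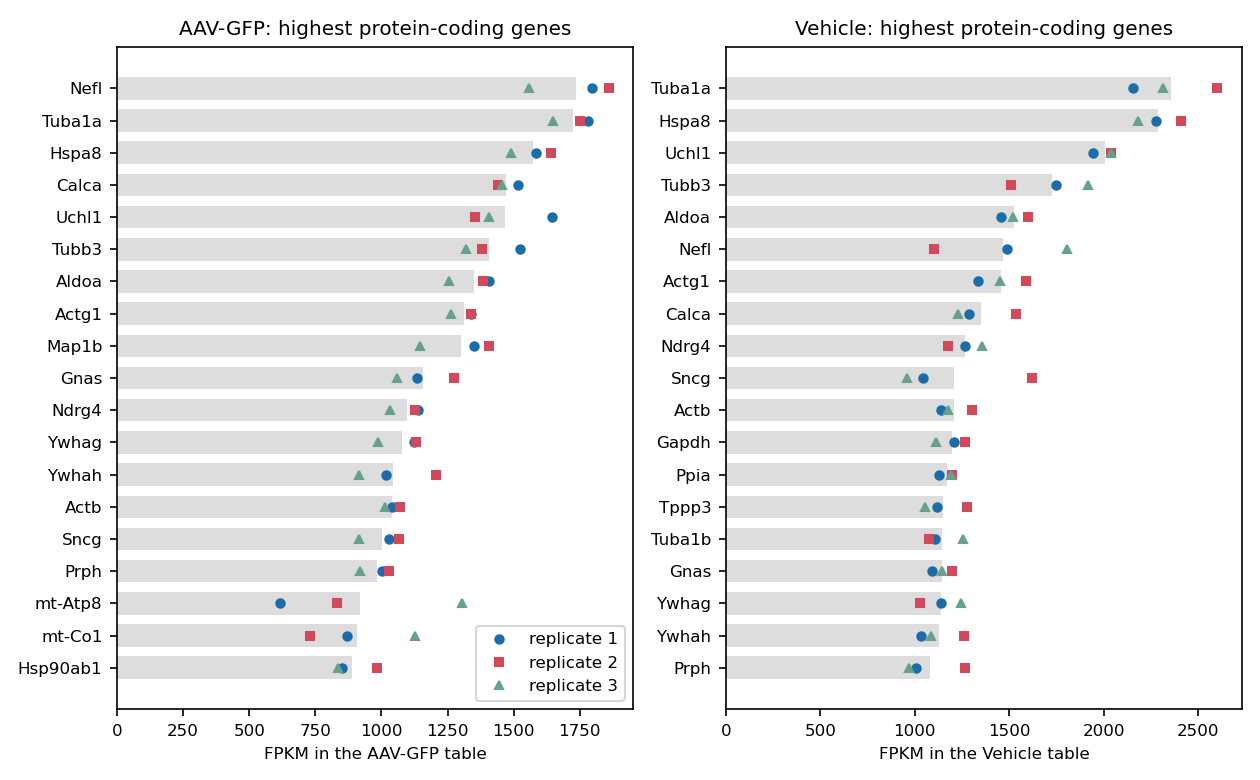
FPKM (horizontal axis, from 0) of 19 of the 20 protein-coding genes with the highest mean in AAV-GFP (left) and in Vehicle (right). Bars are means of 3 libraries and symbols are single libraries. The 2 axes belong to separate tables, so levels should not be read across; within a panel, mt-Atp8 in AAV-GFP and Nefl and Sncg in Vehicle spread most widely.

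Genes of injury and growth were at middle ranks by median, over a wide range. Measured regeneration-associated effectors, of which Hspb1 ranked best, ran from rank 134 to 12941 in AAV-GFP and from 121 to 13118 in Vehicle. Gap43, a growth cone protein, ranked 371 (159, 165 and 138 FPKM) and 414 (141, 154 and 182.4 FPKM). Atf3, a transcription factor known to respond to damage of the peripheral axon, ranked only 5096 (17.2, 11.7 and 17.1 FPKM) and 5109 (18.02, 9.54 and 21.8 FPKM), and Sox11 ranked 10142 and 9838. Jun ranked 1072 and 1148, and Stat3 605 and 613. The 14 injury transcription factors had median ranks of 4326 and 4328.5, and the 20 and 19 measured regeneration-associated effectors 6820 and 7554. Sprr1a, a small proline-rich protein of regenerating axons, was at 13.2, 4.00 and 12.6 FPKM in AAV-GFP and at 11.2, 1.80 and 12.5 FPKM in Vehicle. Replicate 2 was the lowest for Sprr1a and for Atf3 in both groups.

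The labelled tissue was checked against its markers. Of 14 sensory neuron identity genes, 13 were measured in both groups and Drgx had no match by name. Avil, an actin-binding protein of sensory neurons, ranked 171 and 185, Scn10a, the nociceptor sodium channel Nav1.8, ranked 178 and 183, and the transcription factors Pou4f1 and Isl1 ranked 634 and 2105 in AAV-GFP and 834 and 2017 in Vehicle. Glial genes were also present although the label names neurons. The best-ranked satellite glia genes, Apoe and Fabp7, ranked 31 and 396 in AAV-GFP and 44 and 231 in Vehicle. S100b, the best of the glial lineage list, ranked 137 and 171, and Pmp22, the best myelin gene, 162 and 131. The medians of these lists were far lower: 3349 and 2745 for satellite glia, 6110.5 and 6585.5 for glial lineage, and 8407.5 and 8860 for Schwann cell myelin. In bulk samples, fewer cells of a type and less RNA per cell cannot be told apart.

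Other cell types were sparse. None of 8 adipocyte genes reached a mean of 1 FPKM in either group. Skeletal muscle had 1 and 2 of 14 genes, endothelium 3 and 6 of 12, mural cells 2 and 4 of 10, and the glia of the spinal cord 3 and 3 of 11. The astrocyte filament gene Gfap was at 0.354, 0.0324 and 0.279 FPKM in Vehicle. Macrophage genes were measured for 9 of 16 in AAV-GFP and 5 of 16 in Vehicle, with median ranks of 11264 and 12585, and their defining markers Cd68 (0.604, 0.218 and 0.230 FPKM) and Adgre1 (0.196, 0.396 and 0.406 FPKM) were near 0 in Vehicle. Proliferation genes were as low, at median ranks of 11830 and 11868. Neutrophil genes stood higher than macrophage genes, with 12 and 10 of 14 measured at median ranks of 6473.5 and 8665. Red cell genes were measured for 6 and 5 of 9, at 2347 and 3671.

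The order of genes was much alike in the 2 groups. Over the 12768 genes that reached a mean of 1 FPKM in both, Spearman's rho of the mean ranks was 0.982, given as a description, since genes are not independent replicates. Single libraries of different groups correlated at 0.955 to 0.977, those within AAV-GFP at 0.979 to 0.986 and those within Vehicle at 0.951 to 0.973. Vehicle libraries were thus no closer to each other than to AAV-GFP libraries. The 20 highest protein-coding genes shared 16 members, the 100 highest shared 89 and the 1000 highest shared 905. The 11 that were among the 100 highest of AAV-GFP alone included mt-Atp8 (rank 19 against 189), mt-Atp6 (28 against 109) and Cltc, the clathrin heavy chain (86 against 130). Among the 11 of Vehicle alone were Snurf (136 against 70), mt-Co3 (110 against 78) and Tpt1 (120 against 93).

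**Figure D2:**
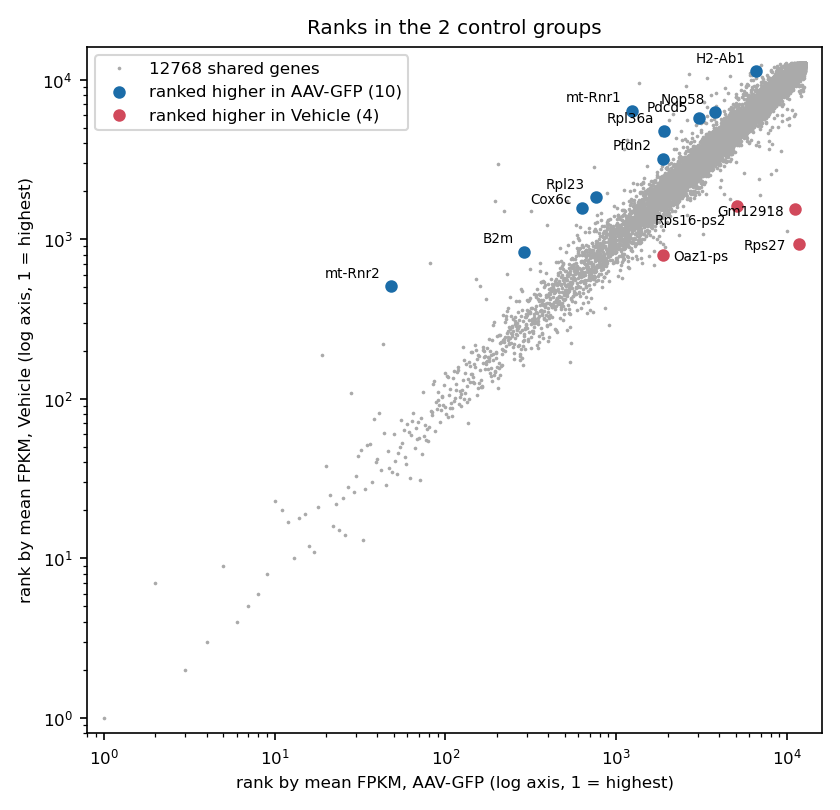
Rank by mean FPKM in AAV-GFP (horizontal) and Vehicle (vertical) for the 12768 genes measured in both, on log axes where 1 is the highest gene. Coloured points are the 14 genes past the limma threshold, 10 ranked higher in AAV-GFP and 4 in Vehicle; the grey cloud follows the diagonal, with a rho of 0.982.

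Variation between control libraries was the second question. The SD of log2(FPKM + 1) over 3 libraries had a median of 0.107 over the 9153 genes averaging 5 FPKM or more in AAV-GFP, and of 0.185 over 9379 such genes in Vehicle. An SD above 0.5 was found for 192 genes (2.10%) in AAV-GFP and for 945 genes (10.1%) in Vehicle. Of these, 86 and 837 were protein-coding. Variable genes in AAV-GFP were lowest in replicate 2 in 128 of 192 cases and highest in replicate 3 in 121 of 192. In Vehicle, replicate 2 was the library farthest from the middle value in 717 of 945 cases. Over all 945 genes, it was the highest library for 366 and the lowest for 501. The 2 groups' SDs were only weakly related across all 8924 genes (rho 0.199, a description). At the top they overlapped more: 33 of the 100 most variable of these 8924 genes were the same. The shared genes included the neutrophil granule genes S100a8, S100a9, Ltf and Lcn2, the globin gene Hba-a1, Sprr1a, the long non-coding RNA Meg3 and several histone genes of the Hist1 cluster. Most of the others were small non-coding RNAs, such as Rnu3a, Snord15b, Rny3, Scarna17 and Mir6236, or pseudogenes.

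To see which gene groups varied together, each of 50 gene lists was given a score per library: the mean over its measured members of log2(FPKM + 1) minus the mean of the 3 control libraries. The range of the score, highest library minus lowest, is in log2 units. It could be taken for the 41 lists in AAV-GFP and 42 in Vehicle with at least 5 measured members. A blood cell list headed the order in both groups, and in Vehicle neuron classes and glia stood close behind.

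**Figure D3:**
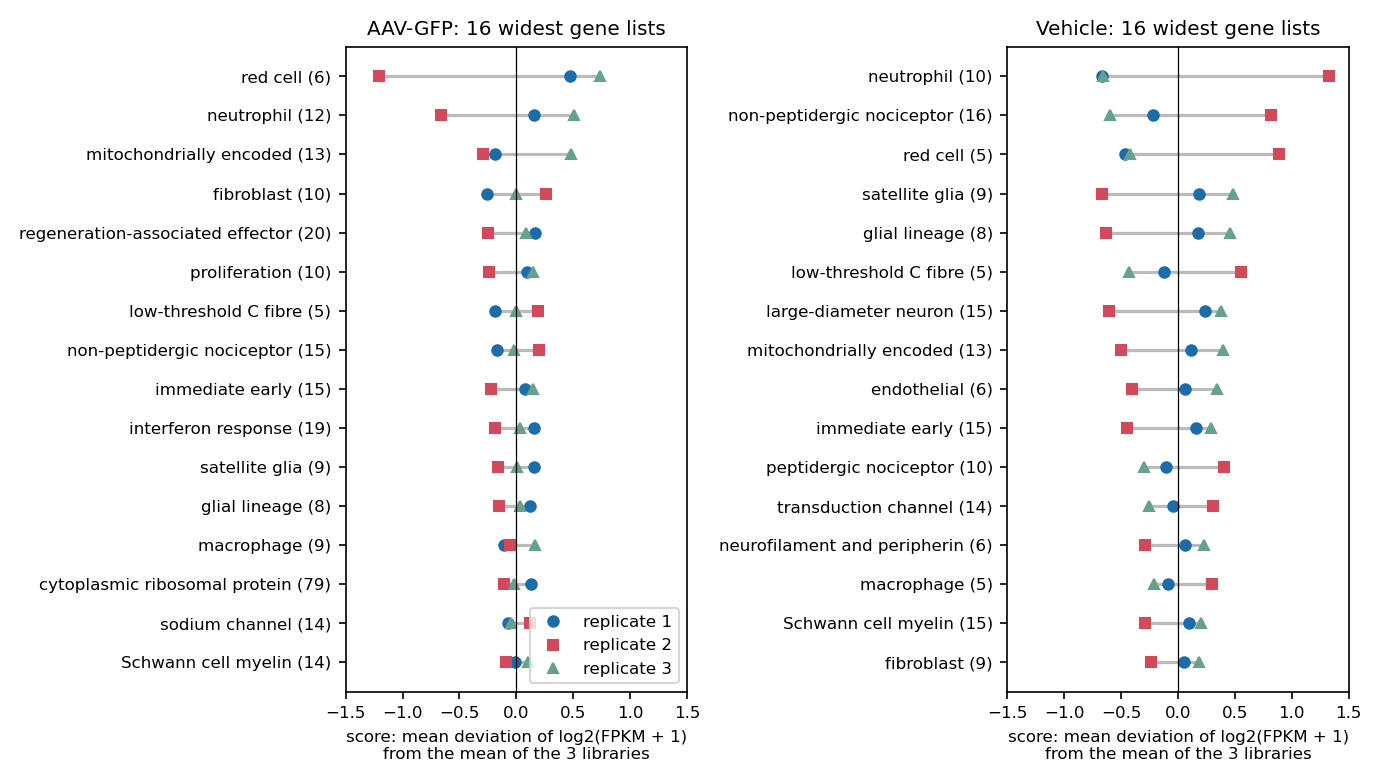
Scores per library (horizontal axis, log2 units, 0 is the mean of the 3 libraries) of the 16 gene lists with the widest range in each control group; the number of measured members is in brackets. Replicate 2 stands at an extreme for most of these lists, low for blood cell lists in AAV-GFP and high for them in Vehicle.

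In AAV-GFP the widest list was red cell genes, with scores of 0.47, -1.21 and 0.74 in replicates 1 to 3, a range of 1.94, and all 6 measured members lowest in replicate 2. Hbb-bs, an adult beta-globin, was at 115, 31.9 and 142 FPKM. Slc4a1, the anion exchanger of the red cell membrane, was at 5.02, 0.604 and 5.28 FPKM. Neutrophil genes came next with scores of 0.16, -0.66 and 0.51 (range 1.17), and 12 of 12 members were lowest in replicate 2. S100a9, a subunit of the calcium-binding protein calprotectin, was at 36.9, 21.6 and 66.8 FPKM, and Ngp, a granule protein, at 43.3, 30.5 and 64.8 FPKM. The primary granule enzymes Mpo (7.68, 1.04 and 3.49 FPKM) and Elane (5.92, 0.902 and 2.56 FPKM) differed from S100a9 in being highest in replicate 1. In the AAV-TKT libraries of the same table the red cell and neutrophil ranges were 0.294 and 0.363, but at lower levels: their scores were -1.68, -1.72 and -1.43 for red cell and -2.11, -1.75 and -2.03 for neutrophil genes, below every AAV-GFP library. Nearer to 0 FPKM, log2(FPKM + 1) compresses differences. Histone genes of the replication-dependent clusters, a set chosen after their values were seen, moved the same way: of 55 measured, 52 were lowest in replicate 2, as for Hist1h2ap at 22.8, 4.64 and 19.7 FPKM. The cause of the histone pattern, any part of blood cells included, was not tested.

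Immunoglobulin genes, taken by their annotated type after the values were seen, ran in another direction. In AAV-GFP, 34 variable segments were listed, with summed levels of 91.9, 239 and 47.9 FPKM, and 5 constant segments summed to 109, 189 and 57.5 FPKM. Igkc, the kappa constant region, was at 46.6, 91.2 and 19.7 FPKM, and Jchain, which joins secreted antibody chains, at 8.54, 12.4 and 2.89 FPKM. Replicate 2 was the highest for all of these and replicate 3 the lowest. Of the 34 variable segments, 14, 17 and 10 reached 1 FPKM in replicates 1 to 3. Ighv1-9 was at 0, 61.7 and 0.950 FPKM, Igkv10-96 at 10.7, 51.1 and 0.135 FPKM, and Igkv6-25 at 15.99, 0 and 0 FPKM. In Vehicle only 2 variable segments were listed, with a summed level of at most 1.62 FPKM. Igkc stood at rank 16531 of the 21650 genes listed for Vehicle (0, 0.301 and 0.570 FPKM), against rank 1577 of 13178 in AAV-GFP. Of 12 lymphocyte genes only Igkc and Ighm were measured in AAV-GFP, and only Ighm in Vehicle. The AAV-GFP table lists no gene averaging under 1.00 FPKM, so T-cell and B-cell surface markers have no value there to set beside the immunoglobulin genes.

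The third list in AAV-GFP was the genes of the mitochondrial chromosome, with scores of -0.19, -0.29 and 0.48 and 12 of 13 members highest in replicate 3. mt-Co1 was at 868, 731 and 1128 FPKM and mt-Atp8 at 616, 833 and 1305 FPKM. mt-Co3 was the most variable, at 351, 71.6 and 595 FPKM, but 99.9% of its 31-base words also occur in other annotated genes, as do 99.5% of those of mt-Atp6, so its level is uncertain. Of the non-coding RNAs, 3 that were picked after their values were seen were also highest in that library: Malat1 was at 327, 211 and 1371 FPKM, Meg3 at 38.3, 27.0 and 172 FPKM, and the host gene Snhg11 at 40.0, 29.8 and 126 FPKM. Lars2, the mitochondrial leucyl-tRNA synthetase, had the opposite order, with 57.4, 141 and 10.9 FPKM. This was also the order of Mir6236 in AAV-GFP, and its cause was not tested. Fibroblast genes ranged over 0.516 (highest in replicate 2, as for Col1a1 at 1.64, 8.36 and 2.65 FPKM) and immediate early genes over 0.363, with 15 of 15 lowest in replicate 2. Neuron classes differed in their range: low-threshold C fibre genes ranged over 0.377 and non-peptidergic genes over 0.367 (12 of 15 highest in replicate 2), large-diameter genes over 0.187 and peptidergic nociceptor genes over 0.0223, the narrowest range of the 41 lists.

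In Vehicle, neuron classes had wider ranges and moved against each other. Non-peptidergic nociceptor genes scored -0.22, 0.82 and -0.60 (range 1.42), with 14 of 16 highest in replicate 2. Mrgprd, an itch and pain receptor that defines one such class, was at 57.7, 152 and 36.7 FPKM. P2rx3, an ATP-gated channel, was at 120, 215 and 100 FPKM, and Lpar3, a lysophosphatidic acid receptor, at 22.2, 65.0 and 13.8 FPKM. Replicate 2 was the highest and replicate 3 the lowest for these 3 genes. Low-threshold C fibre genes followed them (range 0.990, 5 of 5 highest in replicate 2), with Th, tyrosine hydroxylase, at 35.9, 69.1 and 22.96 FPKM. Peptidergic genes did so in part (range 0.698, 7 of 10): Trpv1, the heat and capsaicin channel, was at 30.8, 76.5 and 20.1 FPKM and Tac1 at 173, 389 and 105.3 FPKM, while Calca stayed within 1227 to 1536 FPKM. Of nociceptor sodium channels, Scn11a was at 87.4, 203 and 68.3 FPKM and Scn9a at 81.3, 103.4 and 89.6 FPKM.

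Large-diameter neuron genes went the other way in the same library, with scores of 0.23, -0.61 and 0.38 (range 0.987) and 15 of 15 lowest in replicate 2. Nefh was at 453, 230 and 608 FPKM, Slc17a7, a vesicular glutamate transporter, at 89.9, 31.8 and 101.6 FPKM, and Pvalb, the calcium buffer of muscle spindle afferents, at 49.8, 18.9 and 48.9 FPKM. Spp1, osteopontin, had the widest spread of the list with 120, 25.5 and 160 FPKM. The neurotrophin receptors Ntrk3 (71.5, 41.4 and 89.0 FPKM) and Ntrk2 (48.0, 21.3 and 59.5 FPKM), which mark proprioceptors and touch neurons, were likewise lowest in replicate 2. Etv1, also on the large-diameter list, was nearly even (32.6, 31.4 and 32.3 FPKM). Lists that span neuron classes had narrower ranges: 0.165 for pan-neuronal genes, 0.353 for sensory neuron identity genes (10 of 13 highest in replicate 2) and 0.519 for neurofilaments and peripherin.

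Glial genes were lowest in the same Vehicle library. Satellite glia genes scored 0.19, -0.67 and 0.48 (range 1.14, 9 of 9 lowest in replicate 2) and glial lineage genes 0.17, -0.63 and 0.46 (range 1.09, 8 of 8). Fabp7, a fatty acid carrier of satellite glia, was at 245, 112 and 322 FPKM, Apoe, which carries lipid, at 694, 371 and 948 FPKM, and Sox10, the transcription factor of the glial lineage, at 17.2, 8.75 and 21.3 FPKM. The 15 measured Schwann cell myelin genes scored 0.09, -0.29 and 0.20 (range 0.493), and Pmp22, their highest member, was at 317, 390 and 319 FPKM, highest in replicate 2. Mitochondrially encoded genes (range 0.894, 12 of 13 lowest in replicate 2) and immediate early genes (0.738, 13 of 15) had the same order.

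Blood cell genes in Vehicle were highest in replicate 2. Neutrophil genes scored -0.67, 1.33 and -0.66 (range 2.00, the widest of all lists) with 10 of 10 highest there: S100a9 was at 2.99, 34.0 and 6.11 FPKM, Ltf, lactoferrin, at 2.92, 24.4 and 3.42 FPKM, and Ngp at 7.82, 44.1 and 6.49 FPKM. Red cell genes scored -0.46, 0.89 and -0.42 (range 1.35, 5 of 5), with Hbb-bs at 24.1, 55.7 and 20.02 FPKM. Of 58 measured histone genes, 44 were highest in replicate 2, as for Hist1h4k at 5.72, 46.1 and 14.6 FPKM. Without replicate 2, replicates 1 and 3 of Vehicle differed by 0.0122 in the neutrophil score, and the number of genes with an SD above 0.5 was 343 in place of 945. In AAV-GFP, leaving out replicate 2 narrowed the red cell range to 0.265 and the neutrophil range to 0.350, which were still the fourth and second widest of all lists.

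**Figure D4:**
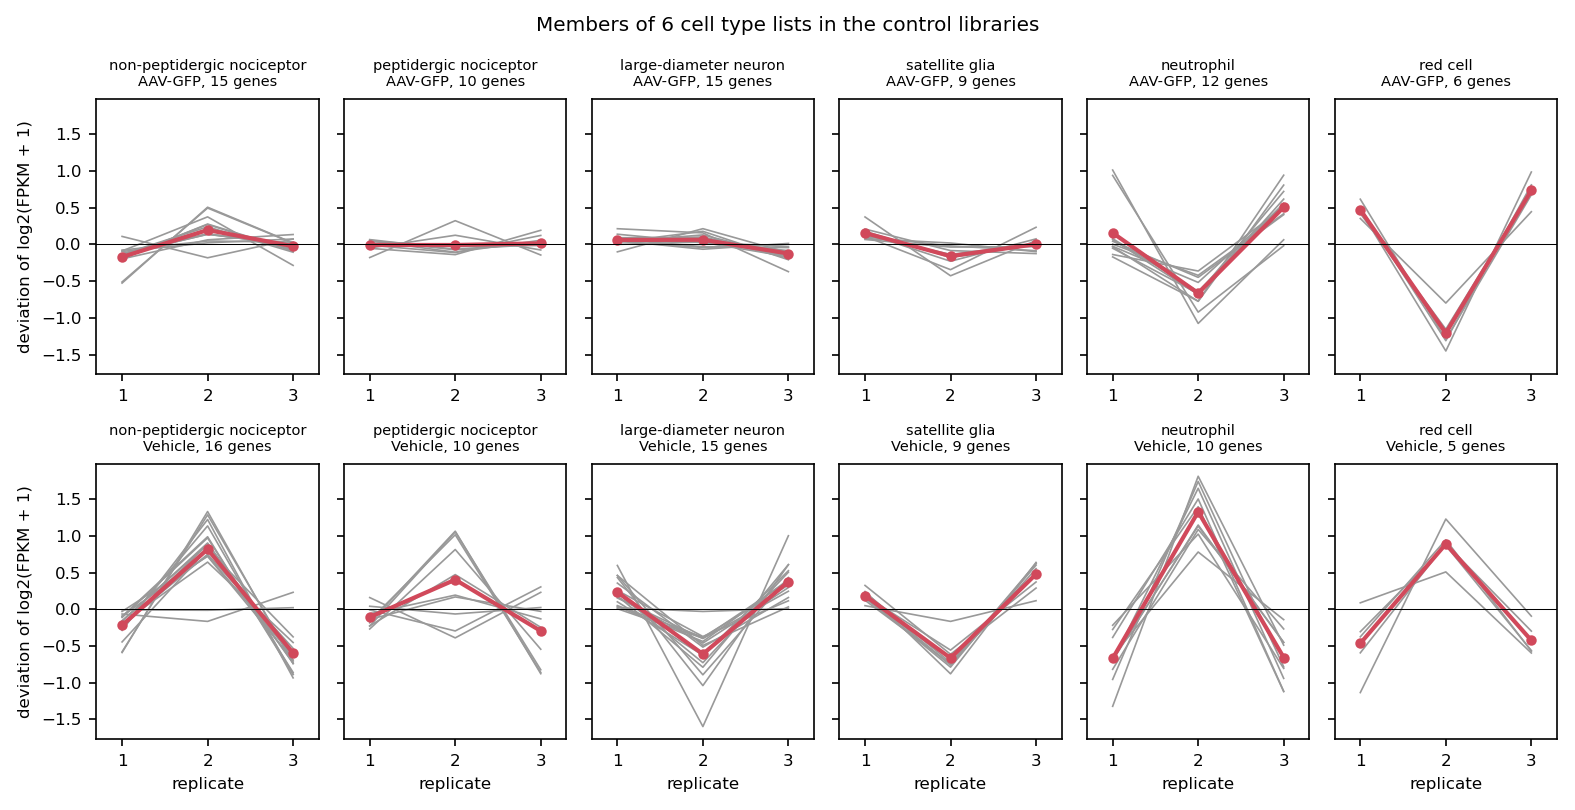
Deviation of log2(FPKM + 1) from the mean of the 3 libraries (vertical axis) by replicate, for the measured members (grey) and the list score (red) of 6 cell type lists in AAV-GFP (top) and Vehicle (bottom). In Vehicle, replicate 2 is high for nociceptor, neutrophil and red cell genes and low for large-diameter and satellite glia genes; in AAV-GFP, replicate 2 is low for neutrophil and red cell genes. Replicates have no order.

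The treated libraries of the Vehicle table, which were scored against the same 3 controls, spread more widely in some lists and less in others. The range over the 3 ribose libraries was 3.03 for red cell (1.35 in Vehicle), 1.73 for satellite glia (1.14 in Vehicle) and 2.199 for neutrophil genes (2.00 in Vehicle). It was narrower than in Vehicle for non-peptidergic nociceptor (0.782 against 1.42) and large-diameter neuron genes (0.465 against 0.987). In the AAV-TKT libraries the satellite glia range was 0.851, against 0.316 in AAV-GFP, and the mitochondrially encoded range was 1.22, against 0.775. A narrow score range can also come from members that move in opposite directions. The narrowest ranges among the Vehicle controls were those of injury transcription factors (range 0.0347), synaptic vesicle genes (0.0407), circadian clock genes (0.0799), glycolysis (0.0943) and actin and tubulin genes (0.104). For the first 3 of these the members' median SD was 0.266, 0.248 and 0.298, so their members were not steady. These values were above the 0.211 of all Vehicle genes averaging 1 FPKM or more, the filter of the list members. For glycolysis the median SD was 0.156 and for actin and tubulin 0.139. In AAV-GFP the narrowest were those of peptidergic nociceptor genes, heat shock chaperones (0.0494), circadian clock genes (0.0557), lysosome genes (0.0694) and pentose phosphate genes (0.0718), with median member SDs of 0.0766 to 0.121. Among single genes, Mapt, the axonal tau protein, was at 181, 176 and 175 FPKM in AAV-GFP and 186, 192 and 190 FPKM in Vehicle, and was picked after its values were seen.

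The last comparison asked which genes held a different rank in the 2 control groups. Ranks within each library over the 12768 shared genes were turned into normal scores and compared with limma, AAV-GFP minus Vehicle. Virus injection, experiment and table cannot be told apart in this comparison, and ranks do not carry the scaling of the tables. After Benjamini-Hochberg adjustment, 10 genes ranked higher in AAV-GFP (0.0783% of those tested) and 4 in Vehicle (0.0313%); 13.9% had an unadjusted p under 0.05. Without a test, the 3 libraries of AAV-GFP all ranked above the 3 of Vehicle for 10.9% of genes, and below them for 10.7%.

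The ribosomal RNAs of mitochondria and 2 genes of antigen presentation were among those that ranked higher in AAV-GFP. mt-Rnr1, the small ribosomal RNA, had ranks of 1218, 1398 and 1077 in AAV-GFP and 7979, 6276 and 5342 in Vehicle. Its difference was 1.34 ± 0.126 (normal score, SE; limma adjusted p = 0.0324). mt-Rnr2 had ranks of 66, 61 and 32 against 582, 714 and 333 (0.91 ± 0.101, limma adjusted p = 0.0459). B2m, the light chain of MHC class I, had ranks of 353, 252 and 259 against 932, 918 and 698 (0.50 ± 0.0582, limma adjusted p = 0.0499). H2-Ab1, a chain of MHC class II that antigen-presenting cells carry, had ranks of 7782, 5864 and 6356 against 11216, 11457 and 11026 (1.12 ± 0.117, limma adjusted p = 0.0459). The other 6 were Rpl36a, Rpl23, Pdcd5, Nop58, Cox6c and Pfdn2, with differences of 0.38 to 0.72. Leaving out any 1 AAV-GFP library gave 0 limma calls in that direction (1089 to 1163 genes then had an unadjusted p under 0.05 in either direction), and leaving out Vehicle replicate 2 gave 33.

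The 4 genes that ranked higher in Vehicle were Rps27, a ribosomal protein gene, and the processed pseudogenes Gm12918, Rps16-ps2 and Oaz1-ps. Rps27 had ranks of 11292, 12082 and 11762 in AAV-GFP and 696, 961 and 1233 in Vehicle (-2.85 ± 0.121, limma adjusted p = 0.0006). Rps27rt, a copy that holds 27.4% of its 31-base words, had the opposite order, with 61.5, 59.5 and 61.1 FPKM in AAV-GFP and 0, 0 and 14.4 FPKM in Vehicle. Summed, the 2 copies ranked 1285, 1387 and 1248 against 696, 961 and 1000, a far smaller gap. All 31-base words of Gm12918 occur in other genes (its parent Rpl13 among them), as do all of Rps16-ps2 and 95.3% of Oaz1-ps, so the ranks of these 3 genes are uncertain. The share was lower for Rps27 (27.6% in any other gene), and its rank is uncertain through the exchange with Rps27rt. Other abundant genes that share words include Gm10123 (100% of words shared, with Ppia), mt-Atp6, Tuba1a (78.6%, with Tuba1c among others) and Hspa8 (44.8%). Also among them are mt-Co1 (63.9%), Actg1 (40.2%) and Nefl (32.2%, with Nefm), so the levels given for these genes are uncertain too.

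Immune genes were next compared by list. Of 15 antigen presentation genes measured in both groups, 13 had all 3 AAV-GFP libraries ranked above all 3 Vehicle libraries and 0 had the reverse, beside 10.9% and 10.7% of all genes. The median difference was 0.40 on the normal score scale. H2-Aa (limma adjusted p = 0.0504) and H2-Eb1 (limma adjusted p = 0.0604) did not pass the threshold, and only B2m and H2-Ab1 did. Of 17 interferon response genes, 11 were separated towards AAV-GFP and 0 towards Vehicle, with a median difference of 0.36. None of the 17 passed the limma threshold, and 11 had an unadjusted p under 0.05, all 11 higher in AAV-GFP, beside 13.9% of all genes in either direction. Ifi27, the highest of them, ranked 446 and 402 and was not separated. Macrophage genes measured in both groups were separated towards AAV-GFP in 2 of 5, all 5 had a higher mean score there, and their median difference of 0.61 was larger than those of both immune lists; 3 of the 5 had an unadjusted limma p under 0.05 and 0 passed after adjustment. Lyz2, a lysozyme of macrophages and neutrophils, was at 29.3, 23.7 and 34.9 FPKM (rank 2928) in AAV-GFP and at 7.54, 30.8 and 9.68 FPKM (rank 5222) in Vehicle. C1qb, a complement chain, ranked 10480 and 13045, and Tyrobp, a signalling adaptor of myeloid cells, ranked 10857 and 12049. The ranks of Ifi27, Lyz2, C1qb and Tyrobp are over each whole table and not over the shared genes. The Vehicle table lists more genes (21650 against 13178), so low ranks there can be larger numbers. Cd68 and Adgre1 have no listed value in AAV-GFP to set beside those of Vehicle. The part of the cell mix in the antigen presentation and interferon ranks was not tested.

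**Figure D5:**
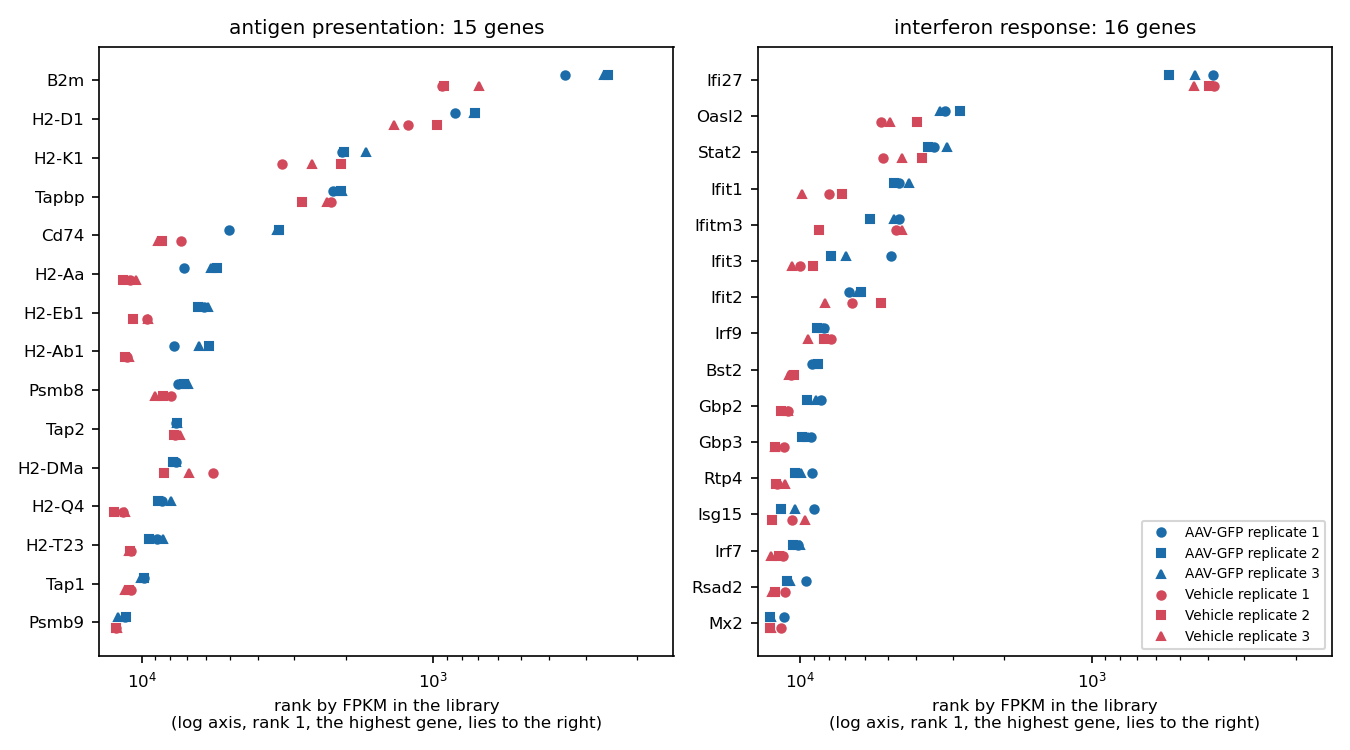
Rank of each antigen presentation gene (left, 15 genes) and interferon response gene (right, 16 of the 17 genes) in every control library, on a log axis with the highest ranks to the right; blue is AAV-GFP, red is Vehicle, and the symbols are replicates. For 13 and 10 of the genes shown all 3 blue symbols lie to the right of all 3 red ones.

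The promoters of these genes are shown for 4 members, because interferon-driven genes are known to carry the letters GAAANNGAAA, to which interferon regulatory factors bind. Each is 300 bases, 250 before to 50 after the start of the gene (RefSeq, GRCm38.p6, plus strand), with matches on either strand in capitals; a match on the other strand appears as its reverse complement. The first is B2m at chr2:122147437-122147736, which passed the test, then the interferon genes Ifit1 at chr19:34640639-34640938, Gbp2 at chr3:142620413-142620712 and Stat2 at chr10:128270248-128270547:
B2m: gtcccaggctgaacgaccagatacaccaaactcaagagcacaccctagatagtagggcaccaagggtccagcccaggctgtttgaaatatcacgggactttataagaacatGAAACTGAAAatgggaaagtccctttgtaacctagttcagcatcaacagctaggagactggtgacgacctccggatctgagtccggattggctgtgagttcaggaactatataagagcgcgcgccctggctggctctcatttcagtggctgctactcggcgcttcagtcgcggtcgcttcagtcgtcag
Ifit1: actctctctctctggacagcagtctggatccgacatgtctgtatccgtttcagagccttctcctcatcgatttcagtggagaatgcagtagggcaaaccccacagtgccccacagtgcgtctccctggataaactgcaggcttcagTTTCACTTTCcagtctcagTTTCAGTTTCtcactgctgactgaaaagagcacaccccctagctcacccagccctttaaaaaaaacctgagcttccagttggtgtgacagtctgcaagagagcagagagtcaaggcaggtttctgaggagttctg
Gbp2: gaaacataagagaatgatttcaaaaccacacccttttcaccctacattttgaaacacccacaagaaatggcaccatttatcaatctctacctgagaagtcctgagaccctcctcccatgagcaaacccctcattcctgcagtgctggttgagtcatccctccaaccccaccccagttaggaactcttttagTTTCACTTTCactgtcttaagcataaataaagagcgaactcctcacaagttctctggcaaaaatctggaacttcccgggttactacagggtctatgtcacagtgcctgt
Stat2: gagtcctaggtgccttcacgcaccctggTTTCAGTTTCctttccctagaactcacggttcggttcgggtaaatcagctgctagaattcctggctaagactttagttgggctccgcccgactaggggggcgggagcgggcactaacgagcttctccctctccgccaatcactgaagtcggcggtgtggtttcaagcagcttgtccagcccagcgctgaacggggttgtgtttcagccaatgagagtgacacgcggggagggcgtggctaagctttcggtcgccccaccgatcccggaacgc
The motif occurred in 1131 of 32851 promoters of this length (3.44%), or in at least 1 promoter of 1079 of 27025 genes (3.99%). Counted per gene, it was found in 10 of 14 interferon response genes that matched the table and in 2 of 13 antigen presentation genes, B2m and H2-T23. Those 10 include Oas1a, which was not among the genes compared by rank. Because interferon-driven genes are known to carry the motif, this count says nothing about the libraries. The 4 promoters shown were taken only from promoters with a match, so their matches were fixed in advance. H2-Ab1, the other antigen presentation gene past the limma threshold, was not among the genes with a match. A match is a description of the letters and not a measured site. Ifit1, which encodes an RNA-binding antiviral protein, was at 17.6, 16.7 and 19.2 FPKM at rank 4541 in AAV-GFP and at 7.62, 9.18 and 4.09 FPKM at rank 8308 in Vehicle. Gbp2, a GTPase of the interferon gamma response, ranked 8967 and 11390.

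Mitochondrially encoded protein genes were separated towards AAV-GFP in 9 of 13, with 0 towards Vehicle and a median difference of 0.51; the highest AAV-GFP library for this list was replicate 3, and in limma 0 of 13 passed and 9 had an unadjusted p under 0.05. This share of separated members was above that of the interferon response list. Over all genes, 10.9% were separated towards AAV-GFP and 10.7% towards Vehicle, and 13.9% had an unadjusted limma p under 0.05. Heat shock chaperones were separated in 11 of 18 towards AAV-GFP and 2 towards Vehicle (median difference 0.17), among them Hspa4 at rank 755 against 1259 and Dnaja1 at rank 520 against 915; 0 of 18 passed in limma and 13 had an unadjusted p under 0.05, 11 of them higher in AAV-GFP. Of 79 ribosomal protein genes, 31 were separated towards Vehicle (39.2%, beside 10.7% of all genes), with a median difference of -0.08. Another 12 were separated towards AAV-GFP (15.2%), near the 10.9% of all genes. Large-diameter neuron genes had 6 of 15 towards AAV-GFP and 0 towards Vehicle. Neutrophil genes had 0 of 10 separated in either direction, although all 10 had a higher mean score in AAV-GFP and the median difference was 0.87, since Vehicle replicate 2 overlapped the AAV-GFP libraries. Non-peptidergic nociceptor, satellite glia and red cell genes also had 0 separated members, which does not show that their ranks were alike.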

How the data were processed

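RNA with a poly(A) tail was isolated from ganglia for 12 libraries with the RNeasy Micro kit and sequenced from directional NEBNext Ultra II libraries, per the labels' protocols. The submitters' processing notes name bcl2fastq 2.20, FastQC, Trim Galore and the GRCm38 build. Aligner, counter, annotation and depth: not given in the sources used here. FPKM values were deposited by the authors in 2 tables; the AAV table lists no gene averaging under 1.00 FPKM, while the other keeps low values.

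Gene identifiers were matched to GENCODE M21 (13170 of 13178 and 21612 of 21650). Genes were ranked by mean FPKM over the 3 controls of a table. Between-library spread was taken on log2(FPKM + 1), with a pseudocount of 1, for genes averaging 5 FPKM or more, and list scores for members averaging 1 FPKM or more. Ranks within libraries were compared between the control groups as normal scores by limma 3.58.1 (R 4.3.3, variance trend on) at a Benjamini-Hochberg threshold of 0.05; the test was also tested on simulated data. Tables were made with Python 3.11.15 and pandas 2.3.3.

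The control libraries and the 50 gene lists (21 of cell types, 29 of functions) were chosen with earlier results of these data known. Genes were named by rule: the 20 highest protein-coding and 5 other genes per group, the 12 most variable, up to 12 per direction past the limma threshold, and per list the 3 best ranked, the 2 most variable and the 3 with the smallest p. Provisional names were left out except among the highest genes. Genes outside the rule are further members of the lists, the defining markers of a cell type, and examples of the histone and immunoglobulin sets, which were chosen after their values were seen. A few genes that the rule names are not reported here. Alternatives changed the pseudocount (0.1 and 0.5), the filter, the scaling, the kind of score, the genes ranked and the model, and left out each library in turn. The numbers on the replicates did not pair the samples: same-numbered libraries of the 2 groups had correlations of 0.0122, 0.109 and 0.00673 in their deviations.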

Additional observations from a re-analysis of the deposited data

How the results depend on the processing

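The order of the highest genes changed little with the processing: by median in place of mean FPKM, 17 of the 20 highest protein-coding genes were kept in AAV-GFP and 19 in Vehicle, and leaving out each library in turn kept 18 to 20 in both. The 100 highest genes shared 85 to 90 members when a library was left out and 92 by median. Spearman's rho of 0.982 was 0.974 over genes averaging 5 FPKM or more and 0.976 to 0.982 when a library was left out. The calls of the rank test were less stable. The number of genes higher in AAV-GFP, 10 as reported, was 1 at 5 FPKM or more, 2 among protein-coding genes alone, 0 with the percentile of the rank (1797 genes with an unadjusted limma p under 0.05 in either direction), 0 without the trend (1612 genes) and 5 with the replicate number as a block (2 of them among the 10), and 0 to 33 when a library was left out (0 without AAV-GFP replicate 1, 2 or 3, 3 without Vehicle replicate 1, of which 1 was among the 10, and 33 without Vehicle replicate 2, all 10 among them). The number higher in Vehicle, 4 as reported, was 1 at 5 FPKM or more and 1 among protein-coding genes, and 3 to 14 when a library was left out (14 without Vehicle replicate 2). Rps27, Rps16-ps2 and Gm12918 passed in every alternative that tested them, the other 11 lost their call in 6 to 10, and none changed direction (limma adjusted p up to 0.240). Genes with an SD above 0.5 numbered 192 in AAV-GFP, 437 at 1 FPKM or more, 86 among protein-coding genes and 137 to 234 when a library was left out; in Vehicle they numbered 945, 1876 at 1 FPKM or more and 343 to 1281 when a library was left out (343 without replicate 2). The AAV-GFP red cell range of 1.94 was 0.265 to 1.94 when a library was left out (0.265 without replicate 2). The Vehicle neutrophil range of 2.00 was 0.754 on the normal score scale, which has other units, and 0.0122 to 2.00 when a library was left out (0.0122 without replicate 2). Of the 5 widest lists, 3 to 5 stayed among the 5 widest under every alternative in each group. At 5 FPKM or more, 6 of 8 antigen presentation and 4 of 8 interferon genes were separated towards AAV-GFP. Over all genes at the main filter of 1 FPKM this share was 10.9%. Where a library that was left out did not set the value, the cause was not tested. Depth is unknown, so no counting interval can be given for values near 1 FPKM, and SDs of 3 libraries are imprecise.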
